A study of Rattus norvegicus with 6 samples.

Results

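The genes described here are 40 genes of DNA replication and S phase, taken by symbol from the 19828 entries of a gene table. They cover the steps from the licensing of replication origins to the copying of chromatin. These genes were chosen by their known function, with earlier results of these data known. They were measured by bulk RNA-seq in total lung of Sprague-Dawley rats, in 3 libraries of wild-type genotype (WT) and 3 of the Ahr-KO genotype. Ahr is the gene of the aryl hydrocarbon receptor, which binds small ligands and then switches on genes such as Cyp1a1. All 6 had Sugen-Hypoxia (SuHx) as their treatment and were labelled day 56. Sugen is an inhibitor of VEGF receptors that, combined with low oxygen, serves as a rat model of pulmonary arterial hypertension, so the comparison is between genotypes within diseased lungs. No untreated group is analysed here, and the labels give no rat age, no design of the knockout allele and no statement that each sample was 1 animal.

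A cell that enters S phase first loads the Mcm helicase onto its origins, then activates it and recruits polymerases, a sliding clamp and its loader, while enzymes of nucleotide synthesis supply the building blocks. E2F transcription factors switch on many of these genes once cyclin-dependent kinases have inactivated the retinoblastoma protein family. Most cells of an adult lung are not dividing, and growth of vascular wall cells is a known feature of SuHx lungs. In bulk RNA, fewer cells in S phase and less of each transcript per cell cannot be told apart.

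Each value is a normalised read count, an estimated count divided by a factor for its library. The estimated depth was 12.9 to 21.9 M reads in the WT libraries and 14.2 to 23.6 M in the Ahr-KO libraries, and 1 read was worth 0.81 to 1.40 units. The alveolar marker Sftpc, a surfactant protein, lay between 230761 and 345211 in all 6 libraries. Cyp1a1, the best known target of the receptor, lay between 23512 and 37694 in WT and between 0.826 and 10.5 in Ahr-KO. The gene-level value of Ahr itself was 3065 ± 288 in WT and 3299 ± 799 in Ahr-KO (SD, n = 3 each), a log2 difference of 0.079 ± 0.18 (adjusted p = 0.81), and such a sum over the gene does not check the edit. Differences below are Ahr-KO minus WT of log2(value + 1) ± standard error, tested with limma-trend over 15386 genes, and a gene is said to have risen or fallen at a Benjamini-Hochberg adjusted p under 0.05.

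Part of the replication machinery fell in the Ahr-KO lungs, and none of the 40 genes rose. The 8 that fell were Cdc6, Mcm3, Mcm5 and Mcm6 of origin licensing, the polymerase gene Pole, the thymidine kinase gene Tk1, and Uhrf1 and Chaf1b of chromatin copying. Their falls ranged from 1.63-fold for Mcm6 to 3.51-fold for Uhrf1. All 40 genes passed the filter on low values, so 20% of them fell, beside 6.26% of all tested genes, and 0 rose, beside 4.5% of all tested genes. At an unadjusted p under 0.05, 15 were lower and 2 higher, beside 2245 and 2055 of the 15386 tested genes. These all-gene counts are also the background of later counts at that p. On the same libraries limma-voom called 11 lower (27.5%) and 0 higher, beside 8.38% and 2.83% of all tested genes.

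Of the 40 differences 33 were negative, and their median was -0.30, beside 0.0085 over all tested genes. In 18 genes (45%) every Ahr-KO value lay below every WT value, against 17.4% of all tested genes. In 4 genes (10%), Mcm7, Pold1, Rpa2 and Dnmt1, every Ahr-KO value lay above every WT value, against 17% of all tested genes. The count of falls changed when libraries were left out, as did the share of all tested genes that fell. It was 3 without WT library 0, 4 when WT library 1 was removed, 4 when Ahr-KO library 1 was, 3 when Ahr-KO library 2 was, and 1 without both libraries numbered 2, the shallowest of each group, where 2.73%, 3.35%, 2.32%, 1.79% and 1.9% of all tested genes fell.

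**Figure D1:**
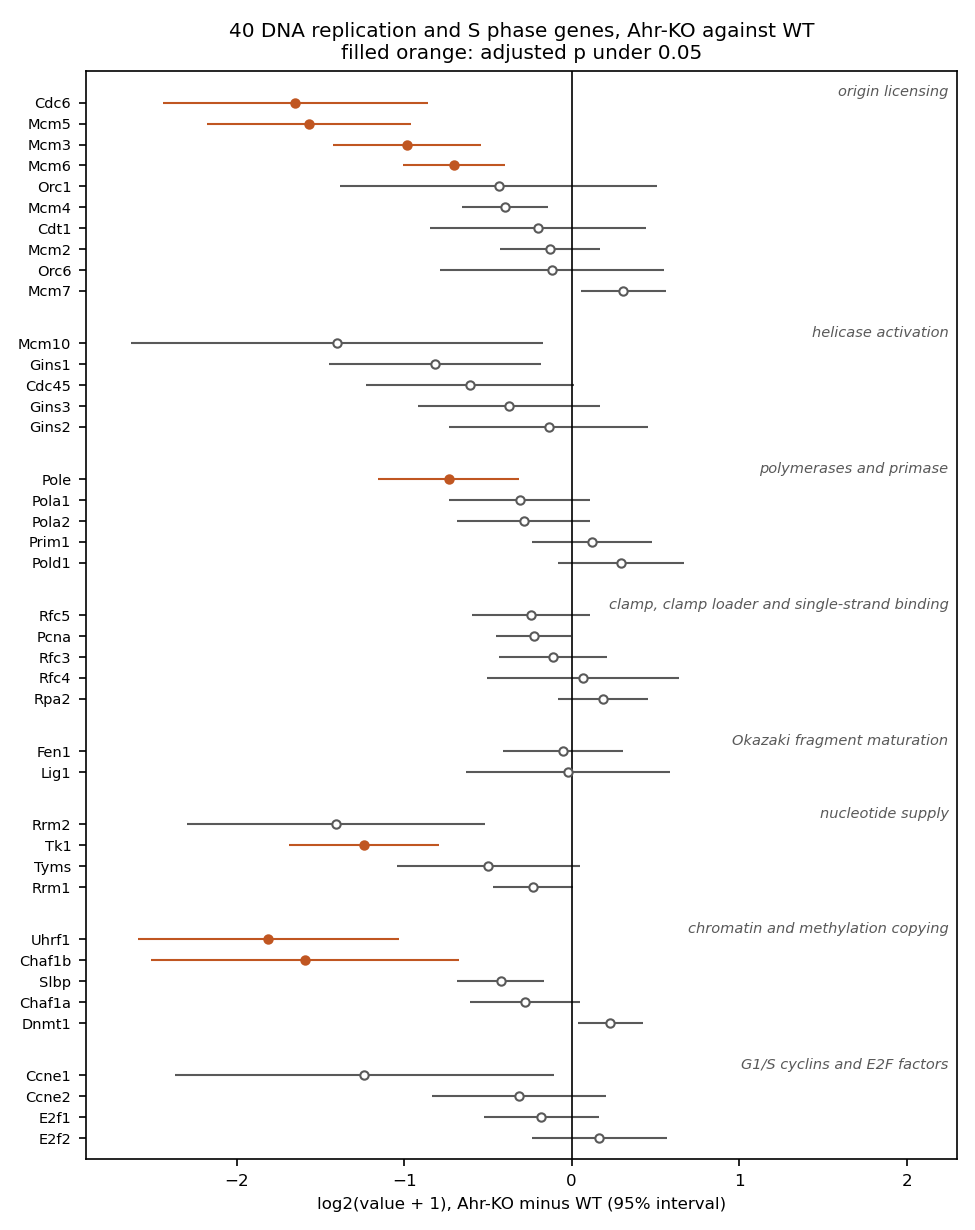
The log2 difference Ahr-KO minus WT of log2(value + 1) for each of the 40 genes, with 95% intervals from limma-trend, grouped by role. Filled orange points mark the 8 genes with an adjusted p under 0.05, all left of 0, and the 7 positive differences reach 0.31 at most.

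Origin licensing held 4 of the 8 falls among its 10 genes, with a median difference of -0.42 (-0.27 after quantile normalisation). Mcm2 to Mcm7 encode the subunits of one helicase ring, and 3 of these 6 genes fell while the others did not pass. Mcm5 measured 147, 172 and 196 in WT libraries 0, 1 and 2 and 69.3, 38.8 and 68.2 in Ahr-KO libraries 0, 1 and 2. The difference was -1.57 ± 0.26 on the log2 scale (95% interval -2.18 to -0.96), with an adjusted p of 0.013. The Ahr-KO values were all below the lowest WT value, a 2.96-fold fall. It passed the test in every alternative but the one without both libraries numbered 2 (adjusted p = 0.064).

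Mcm3 measured 369, 351 and 401 in the WT libraries, in the same order, and 198, 144 and 235 in the Ahr-KO libraries. The difference was -0.98 ± 0.19 on the log2 scale (95% interval -1.42 to -0.54), with an adjusted p of 0.019. The groups did not overlap, and Ahr-KO library 1 was lowest. Mcm3 overlaps a pseudogene, Cct7-ps4, and Mcm6 a tRNA gene in the RefSeq annotation. The call on Mcm3 was lost without WT library 0 (adjusted p = 0.058) and without both libraries numbered 2 (0.052). Mcm6 measured 439.8, 390.1 and 443 in WT and 279.7, 229 and 274 in Ahr-KO. The difference was -0.70 ± 0.13 on the log2 scale (95% interval -1.01 to -0.40), with an adjusted p of 0.018. Its groups were again apart, with the smallest fall of the 8. The adjusted p of Mcm6 without WT library 0, then with Ahr-KO library 1, Ahr-KO library 2 or both libraries numbered 2 removed instead, was 0.063, 0.064, 0.063 and 0.071.

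Mcm7 stood on the other side of its partners. It measured 761, 856 and 951 in WT and 1030.0, 1016 and 1125 in Ahr-KO, so the lowest Ahr-KO value was above the highest WT value. The difference was 0.31 ± 0.11 on the log2 scale (95% interval 0.056 to 0.56), with an adjusted p of 0.11. It did not pass, except without WT library 2, where the difference was 0.39 (adjusted p = 0.047). Over the 16 alternatives the difference of Mcm7 went down to 0.22, and its adjusted p up to 0.29. Mcm2 measured 437, 427 and 529 in WT and 462, 393 and 416 in Ahr-KO, with overlapping groups. The difference was -0.13 ± 0.13 on the log2 scale (95% interval -0.43 to 0.17), with an adjusted p of 0.56. Mcm4 lay below WT in all 3 Ahr-KO libraries, at 442 ± 25.9 in WT and 334 ± 13.1 in Ahr-KO (SD, n = 3 each). It missed the threshold at a difference of -0.40 ± 0.11 (adjusted p = 0.058) and passed when values were rescaled to equal library totals (0.028).

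The subunits were also set against Mcm7 as ratios within each library, which no scaling of a library can change beyond the added pseudocount. This comparison was chosen after the values were seen. The log2 ratio of Mcm5 to Mcm7 was -2.36, -2.30 and -2.27 in the WT libraries and -3.87, -4.67 and -4.02 in the Ahr-KO libraries, a shift of -1.88. The shift was -1.29 for Mcm3, -1.01 for Mcm6, -0.71 for Mcm4 and -0.44 for Mcm2. In each of the 5 ratios all Ahr-KO libraries lay below all WT libraries. The 2-sided exact permutation p was 0.1 (0.1 after adjustment over the 5), the smallest that 3 against 3 libraries allow. For Mcm3, Mcm4, Mcm5 and Mcm6 this outcome was fixed by the values above, as each was lower and Mcm7 higher in every Ahr-KO library. Their p-values are therefore no further evidence, and all 5 ratios share Mcm7. A ratio does not show which of its 2 genes moved. Mcm7 hosts the microRNA genes Mir25, Mir93 and Mir106b in the RefSeq annotation, and Mcm2, Mcm4 and Mcm7 have named pseudogenes, so their values are uncertain where reads were shared.

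Cdc6, the loader that brings the Mcm ring to the origin recognition complex, measured 40.99, 29.6 and 29.4 in WT and 12.9, 6.61 and 10.9 in Ahr-KO. The difference was -1.65 ± 0.34 on the log2 scale (95% interval -2.44 to -0.86), with an adjusted p of 0.024. Every Ahr-KO value was under every WT value, on 8 to 16 reads per Ahr-KO library and 21 to 41 reads per WT library. The adjusted p was 0.082 without WT library 0, 0.061 when WT library 1 was left out, 0.072 when Ahr-KO library 1 was, 0.075 when Ahr-KO library 2 was, and 0.086 without both libraries numbered 2. Its partner in loading, Cdt1, overlapped between the groups, at 112 ± 33.2 in WT and 95.6 ± 18.8 in Ahr-KO (SD, n = 3 each, adjusted p = 0.68). Orc1 and Orc6, subunits of the origin recognition complex, had differences of -0.44 and -0.12 (adjusted p = 0.53 and 0.83), and Orc6 turned positive after quantile normalisation (0.16). Orc1 rested on 6 to 15 reads per library, so a difference of its size was not detectable at this depth.

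**Figure D2:**
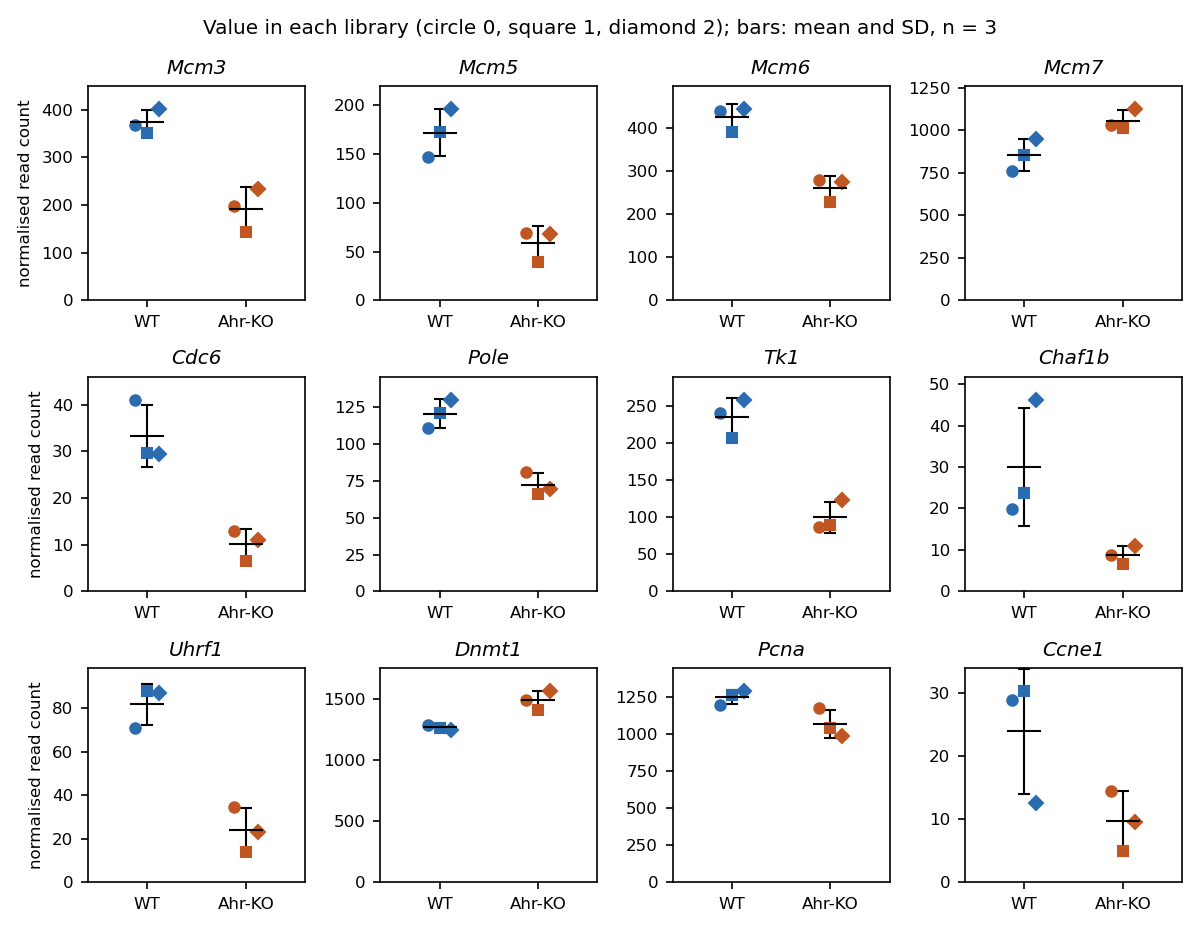
Normalised read counts on linear axes starting at 0 for 12 of the genes, 1 panel each, with circle, square and diamond for libraries 0, 1 and 2 of WT and Ahr-KO and lines for the mean and SD (n = 3 each). The groups are apart in the panels of the 8 genes that fell, Mcm7 and Dnmt1 are higher in every Ahr-KO library, and Ccne1 overlaps.

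The promoters of 4 of the ring's subunits are shown because they hold a shared motif, in Mcm3, Mcm5 and Mcm6, which fell, and in Mcm7, which did not pass, with Tk1, a gene that fell, beside them. The windows come from RefSeq on the build GRCr8 and run from 250 bases before to 50 bases after the annotated gene start. They are chr9:30733697-30733996 on the minus strand for Mcm3, chr19:13488563-13488862 on the plus strand for Mcm5, chr13:42404303-42404602 on the minus strand for Mcm6, chr12:22163129-22163428 on the minus strand for Mcm7 and chr10:103544728-103545027 on the minus strand for Tk1. Each is printed 5′ to 3′ along its gene, and capitals mark matches to the E2F motif on either strand.
Mcm3: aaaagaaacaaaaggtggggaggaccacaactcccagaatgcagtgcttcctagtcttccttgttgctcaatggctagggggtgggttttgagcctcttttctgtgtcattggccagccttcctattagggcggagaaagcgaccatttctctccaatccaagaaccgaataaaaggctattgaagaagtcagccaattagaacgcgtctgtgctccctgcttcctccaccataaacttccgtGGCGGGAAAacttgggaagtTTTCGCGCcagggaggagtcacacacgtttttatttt
Mcm5: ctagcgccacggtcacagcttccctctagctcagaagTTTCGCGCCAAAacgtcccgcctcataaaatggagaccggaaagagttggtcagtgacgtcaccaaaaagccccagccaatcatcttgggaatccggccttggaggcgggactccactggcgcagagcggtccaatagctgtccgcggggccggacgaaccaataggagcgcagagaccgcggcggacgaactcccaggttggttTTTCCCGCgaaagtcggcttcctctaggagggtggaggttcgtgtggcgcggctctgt
Mcm6: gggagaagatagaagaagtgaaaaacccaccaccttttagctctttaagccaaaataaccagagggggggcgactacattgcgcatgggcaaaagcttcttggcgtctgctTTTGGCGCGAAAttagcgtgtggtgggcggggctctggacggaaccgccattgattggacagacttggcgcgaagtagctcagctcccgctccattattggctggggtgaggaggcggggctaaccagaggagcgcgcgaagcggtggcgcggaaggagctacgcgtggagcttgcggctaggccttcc
Mcm7: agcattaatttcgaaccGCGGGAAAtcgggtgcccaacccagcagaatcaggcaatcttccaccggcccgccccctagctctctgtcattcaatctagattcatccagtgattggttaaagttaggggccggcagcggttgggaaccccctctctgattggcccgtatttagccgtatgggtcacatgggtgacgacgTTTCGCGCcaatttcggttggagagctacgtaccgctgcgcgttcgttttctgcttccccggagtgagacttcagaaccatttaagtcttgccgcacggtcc
Tk1: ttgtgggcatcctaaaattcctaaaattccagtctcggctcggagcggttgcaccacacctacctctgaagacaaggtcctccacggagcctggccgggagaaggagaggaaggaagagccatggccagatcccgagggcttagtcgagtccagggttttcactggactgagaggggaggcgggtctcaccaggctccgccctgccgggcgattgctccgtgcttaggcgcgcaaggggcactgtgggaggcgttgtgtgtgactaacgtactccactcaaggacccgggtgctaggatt

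The E2F motif was searched as TTTCGCGC, TTTGGCGC, TTCCCGCC and TTTCCCGC on both strands, and matches, also those on opposite strands, can overlap each other. With the annotated gene start counted as 1, matches began at -7, -6 and 14 in Mcm3, at -213, -209 and -8 in Mcm5, at -139 and -135 in Mcm6, and at -233 and -52 in Mcm7. Mcm2, which did not pass either, held matches at -14 and -10. The Tk1 window held none of these letters. Of the 40 genes 33 had a window, and 20 of these (60.6%) held a match, beside 3.5% of 27457 genes with a window and 6% of the 11736 of them that were tested. Matches stood in 5 of 7 such genes past the threshold and in 15 of 26 that did not pass, among them Mcm7 and Dnmt1. No window was matched for Mcm4, Rrm2, E2f1, Cdc6, Orc1, E2f2 and Ccne2.

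The CCAAT box of NF-Y, a general promoter factor, stood in 63.6% of the 33 genes and in 38.6% of tested genes, and the core of the aryl hydrocarbon receptor's own motif, GCGTG, in 54.5% and 47.9%. The longer form TNGCGTG, which contains that core, stood in 21.2% and 7.6%, among them 2 of 7 past the threshold and 5 of 26 not past it. The cell cycle homology region of mitotic promoters, searched as TTTGAA and TTTAAA, stood in 15.2% and 21%. It stood in 0 of the 7 genes past the threshold that had a window and in 5 of the 26 not past it. All were searched on both strands, and a gene counted where any of its windows held a match. Matches of such short motifs are descriptions of the letters and do not show binding.

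Helicase activation, the step at which Mcm10, Cdc45 and the GINS complex turn the loaded ring into a moving helicase, had 5 negative differences of 5, with a median of -0.61 (-0.30 after quantile normalisation), and none passed in limma-trend or limma-voom (2 were lower at an unadjusted p under 0.05). Mcm10 had the largest of them at -1.40 ± 0.53 (adjusted p = 0.13), with 32.99, 38.6 and 68.5 in WT and 22.6, 6.61 and 27.3 in Ahr-KO. The Ahr-KO libraries all lay under WT, but library 1 was far below the others of its group, and Mcm10 rested on 8 to 49 reads per library. Gins1 was at 38.1 ± 8.71 in WT and 20.9 ± 1.35 in Ahr-KO (SD, n = 3 each) without overlap, a difference of -0.81 ± 0.27 (adjusted p = 0.098). Cdc45 did not overlap either (-0.61, adjusted p = 0.19), while Gins2 (-0.14, 0.77) and Gins3 (-0.37, 0.35) did. Gins2 overlaps Gse1, which lay between 1456 and 1552 in WT and between 2017 and 2509 in Ahr-KO. Reads from a stretch that both genes share cannot be told apart without the strand, and their part in the Gins2 values was not tested.

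Among the polymerases, Pole, the catalytic subunit of the leading-strand polymerase epsilon, fell. It measured 111, 122 and 130.1 in WT and 81.4, 66.1 and 69.6 in Ahr-KO. The difference was -0.73 ± 0.18 on the log2 scale (95% interval -1.16 to -0.31), with an adjusted p of 0.042. The groups were apart and the spread within each was small, but Pole overlaps a pseudogene, and leaving out any 1 library put the adjusted p between 0.051 and 0.13, above the threshold. It was also not called after quantile normalisation (0.11), without a filter (0.053) and without both libraries numbered 2 (0.14). Pold1, the catalytic subunit of polymerase delta, measured 281, 283 and 206 in WT and 289, 315 and 334 in Ahr-KO, higher in every Ahr-KO library by a narrow margin. The difference was 0.30 ± 0.16 on the log2 scale (95% interval -0.079 to 0.67), with an adjusted p of 0.28. The polymerase alpha genes Pola1 and Pola2 had differences of -0.31 and -0.29 (adjusted p = 0.31 and 0.32), and Prim1, the primase that starts each strand, 0.12 (0.65).

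None of the 5 genes of the sliding clamp, its loader and single-strand binding passed in limma-trend or limma-voom, and 1 was lower at an unadjusted p under 0.05. Pcna, the clamp that tethers polymerases to DNA and a common marker of proliferation, measured 1193, 1259.8 and 1288 in WT and 1173, 1041 and 988 in Ahr-KO. The difference was -0.23 ± 0.097 on the log2 scale (95% interval -0.45 to -0.0028), with an adjusted p of 0.17. The groups were apart by a narrow margin, and reads of its 3 named pseudogenes could have been shared with it. Rfc3, Rfc4 and Rfc5, subunits of the clamp loader, had differences of -0.11, 0.068 and -0.24 (adjusted p = 0.65, 0.89 and 0.35). Rfc3 turned positive after quantile normalisation (0.00998), and Rfc4 negative with equal library totals (-0.023) and limma-voom (-0.025). Rfc4 measured 124, 178 and 209.8 in WT and 134, 203 and 196 in Ahr-KO, with library 0 lowest in both groups.

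Rpa2, a subunit of the protein that coats single-stranded DNA, measured 291, 292 and 329 in WT and 348, 348 and 341 in Ahr-KO. The difference was 0.19 ± 0.12 on the log2 scale (95% interval -0.0805 to 0.45), with an adjusted p of 0.34. Its groups did not overlap, with Ahr-KO higher. The genes of Okazaki fragment maturation showed the smallest differences. Fen1, the flap endonuclease, measured 215, 214 and 175 in WT and 185, 183 and 214 in Ahr-KO (difference -0.0503 ± 0.15, 95% interval -0.41 to 0.31, adjusted p = 0.87). Lig1, the ligase that seals the fragments, measured 70.97, 97.7 and 129 in WT and 99.1, 76.9 and 112 in Ahr-KO (difference -0.022 ± 0.26, -0.63 to 0.59, adjusted p = 0.97). Both intervals hold 0 and reach beyond 0.3 in each direction, so a change of that size in either gene was not detectable. Both differences turned positive after quantile normalisation (0.029 and 0.18). Fen1 overlaps Tmem258 and Lig1 overlaps Zswim9 in the annotation.

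Nucleotide supply had 4 negative differences of 4, with a median of -0.87. Tk1, the cytosolic thymidine kinase that salvages thymidine for DNA synthesis, measured 241, 208 and 259 in WT and 87.04, 89.3 and 124 in Ahr-KO. The difference was -1.24 ± 0.19 on the log2 scale (95% interval -1.69 to -0.79), with an adjusted p of 0.011. The highest Ahr-KO value was below the lowest WT value, a 2.36-fold fall, and it passed in all 16 alternatives (adjusted p at most 0.044). Reads of its 2 named pseudogenes could have been shared. Rrm2, the regulated subunit of ribonucleotide reductase, measured 66.98, 62.4 and 72.7 in WT and 39.5, 13.2 and 28.6 in Ahr-KO, without overlap.

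The difference of Rrm2 was -1.41 ± 0.38 (adjusted p = 0.056). It fell in the fit without Ahr-KO library 0 (adjusted p = 0.032), with equal library totals (0.044) and with limma-voom (0.037). Rrm2 overlaps Cys1, which lay between 249.9 and 363.7 in WT and between 362.8 and 420.2 in Ahr-KO. Reads from a stretch that both share cannot be told apart without the strand. Rrm1, the large subunit of the same enzyme, was at 893 ± 80.4 in WT and 759 ± 38.4 in Ahr-KO (SD, n = 3 each), a difference of -0.23 ± 0.10 (adjusted p = 0.19). Tyms, which makes thymidylate afresh, overlapped between the groups (-0.50, 0.21).

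The copying of chromatin and methylation held 2 falls among 5 genes. Uhrf1, which recognises hemimethylated DNA behind the fork and recruits the methyltransferase Dnmt1, measured 70.97, 87.9 and 86.7 in WT and 34.7, 14.05 and 23.2 in Ahr-KO. The difference was -1.81 ± 0.34 on the log2 scale (95% interval -2.59 to -1.03), with an adjusted p of 0.017. This was the largest fall of the 40, 3.51-fold, with all Ahr-KO libraries under WT. It was not called without WT library 1 (adjusted p = 0.054), without Ahr-KO library 2 (0.07) or without both libraries numbered 2 (0.098). Uhrf1 overlaps Arrdc5, which was listed at 0 in 5 of the 6 libraries.

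Dnmt1, the enzyme that Uhrf1 brings to newly copied DNA, lay on the other side. It measured 1291, 1268 and 1249 in WT and 1495, 1409.9 and 1567 in Ahr-KO, and every Ahr-KO value was the higher. The difference was 0.23 ± 0.083 on the log2 scale (95% interval 0.038 to 0.42), with an adjusted p of 0.12. Dnmt1 passed in 0 of 16 alternatives, where its difference ran from 0.14 to 0.27 (adjusted p up to 0.33). Chaf1b, a subunit of the chromatin assembly factor that places histones behind the fork, measured 19.99, 23.8 and 46.2 in WT and 8.87, 6.61 and 10.9 in Ahr-KO. The difference was -1.59 ± 0.40 on the log2 scale (95% interval -2.51 to -0.67), with an adjusted p of 0.043. The groups were apart, on 8 to 11 reads per Ahr-KO library and 20 to 33 per WT library.

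The call on Chaf1b was lost when any 1 library was left out (adjusted p between 0.062 and 0.13), after quantile normalisation (0.077), without the trend (0.055) and without both libraries numbered 2 (0.1). Its partner Chaf1a was lower in all 3 Ahr-KO libraries, at 239 ± 16.4 in WT and 197 ± 18.3 in Ahr-KO (SD, n = 3 each), a difference of -0.28 ± 0.14 (adjusted p = 0.24). Slbp, which binds the stem-loop of histone mRNAs, was at 607 ± 24.3 in WT and 454 ± 43.6 in Ahr-KO without overlap, a difference of -0.42 ± 0.11 (adjusted p = 0.051). It passed with equal library totals (0.03), limma-voom (0.029), the stricter filter (0.048) and without WT library 2 (0.048).

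The G1/S cyclins and E2F factors, which act before the rest, gave 0 calls among 4 genes in limma-trend and in limma-voom, and 1 was lower at an unadjusted p under 0.05. Ccne1, a cyclin that starts S phase with Cdk2, measured 28.99, 30.4 and 12.6 in WT and 14.5, 4.96 and 9.55 in Ahr-KO. The difference was -1.24 ± 0.49 on the log2 scale (95% interval -2.37 to -0.11), with an adjusted p of 0.15. WT library 2 lay within the Ahr-KO range, so the groups overlapped, on 6 to 37 reads per library. E2f1, an activator of S phase genes, measured 219, 254 and 256 in WT and 199.9, 201 and 243 in Ahr-KO. The difference was -0.18 ± 0.15 on the log2 scale (95% interval -0.52 to 0.16), with an adjusted p of 0.47. E2f2, a related activator, measured 619, 454 and 392 in WT and 487, 566 and 563 in Ahr-KO. The difference was 0.17 ± 0.17 on the log2 scale (95% interval -0.24 to 0.57), with an adjusted p of 0.58. The groups of both overlapped, with WT library 0 highest for E2f2, and Ccne2, which overlaps Ints8, had a difference of -0.31 (adjusted p = 0.41).

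Seen by library, the falls were carried by all 3 Ahr-KO libraries, and library 1 was the lowest most often. The median deviation of the 40 genes from their own mean over 6 libraries was 0.24, 0.16 and 0.24 in WT libraries 0, 1 and 2 and -0.11, -0.17 and -0.16 in the Ahr-KO libraries. Ahr-KO library 1 held the lowest value of 15 genes and WT library 2 the highest of 21. The summed value of the 40 genes was 661 to 682 for each M (mega) of a library's total in WT and 549 to 571 in Ahr-KO. The order of single libraries within a group differed from gene to gene.

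**Figure D3:**
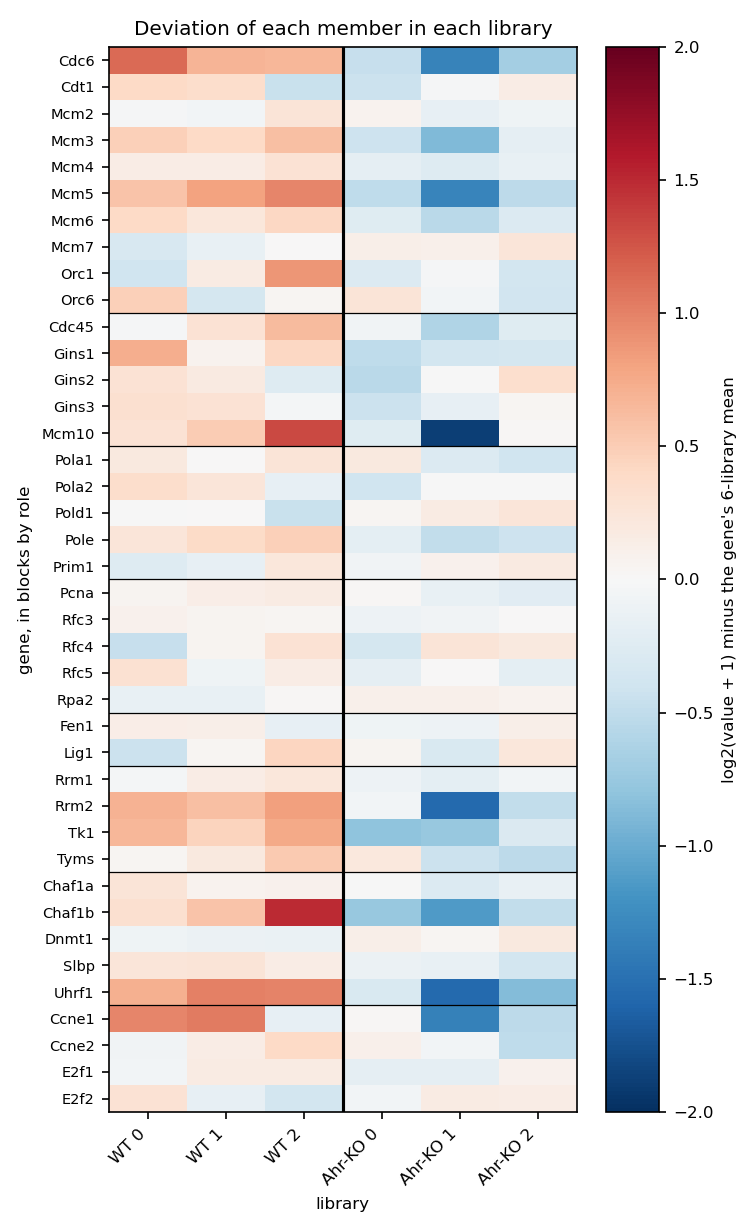
Deviation of log2(value + 1) from each gene's mean over the 6 libraries, with the 40 genes in rows by role and the libraries in columns. Blue in the 3 Ahr-KO columns marks low values, deepest in Ahr-KO library 1, where Mcm10 reaches -1.88, while Mcm7 and Dnmt1 show the opposite order.

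Other genes of replication gave 1 call, in the other direction. Of 50 further replication genes, 49 were in the table and tested, 0 fell and 1 rose, with 24 negative differences and a median of 0.0044. At an unadjusted p under 0.05, 6 were lower and 4 higher, beside 2245 and 2055 of the 15386 tested genes. Limma-voom called 1 lower and 1 higher, beside 8.38% and 2.83% of all tested genes. The median was -0.087 with equal library totals. The 1 that rose was Tonsl, a histone reader of newly replicated chromatin, with 349, 289 and 279.8 in WT and 525, 660.3 and 729.8 in Ahr-KO (difference 1.05 ± 0.16, adjusted p = 0.0093, lost without both libraries numbered 2 at 0.057). Cdc7, the kinase that fires licensed origins, was lower without overlap (-1.05, adjusted p = 0.055) and passed in 3 alternatives, and Orc5, a subunit of the origin recognition complex, was at 0.41 (0.059).

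Regulators of E2F gave 4 falls and 1 rise among 27 tested genes, with a median of -0.11. E2f8, a repressor of the E2F family whose own level follows the cell cycle, fell from 23.02 ± 3.58 to 5.61 ± 2.38 (SD, n = 3 each, difference -1.92 ± 0.38, adjusted p = 0.021). The cyclin D gene Ccnd2 (-0.87, 0.034) fell as well, as did Mybl2 (-1.03, 0.039) and Ccna2 (-1.09, 0.047), the latter pair named after their values were seen. Cdk2, the kinase that works with cyclin E, rose, at 569 ± 25.96 in WT and 825 ± 84.2 in Ahr-KO (difference 0.53 ± 0.11, adjusted p = 0.023). Of the inhibitors of cyclin-dependent kinases, Cdkn1a, which encodes p21, was at -0.0063 ± 0.42 (95% interval -0.98 to 0.97, adjusted p = 0.99), and Cdkn1b and Cdkn2b at 0.51 and 0.63 (0.062 and 0.064).

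These calls also depended on single libraries, named here by group and number. E2f8 was not called without WT 0 (0.072), WT 1 (0.052), Ahr-KO 1 (0.065) or Ahr-KO 2 (0.076), Ccnd2 without WT 1 (0.054), Ahr-KO 0 (0.078), Ahr-KO 1 (0.098) or Ahr-KO 2 (0.099), and Cdk2 without WT 0 (0.064), WT 1 (0.075), Ahr-KO 1 (0.083) or Ahr-KO 2 (0.088), each with its adjusted p in brackets. Mybl2 and Ccna2 were each called in 1 of the 6 fits that left out a library. The number of E2F regulators that fell was 1, 0 and 3 when WT library 0, 1 or 2 was left out and 2, 0 and 0 when Ahr-KO library 0, 1 or 2 was.

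Mitosis genes, which act after S phase, gave 8 falls (33.3%) and 0 rises among 24, with a median of -0.93 and 18 without overlap. Cdk1, the kinase of mitotic entry, measured 187, 200.4 and 154 in WT and 88.7, 56.2 and 75.03 in Ahr-KO (difference -1.30 ± 0.22, adjusted p = 0.013). Mki67, the antigen Ki-67, was at 426 ± 42.9 in WT and 233 ± 60.3 in Ahr-KO (SD, n = 3 each, difference -0.89 ± 0.19, adjusted p = 0.026), and Top2a, the topoisomerase that untangles sister chromatids, at 264 ± 12.8 in WT and 129 ± 55.4 in Ahr-KO (-1.11 ± 0.28, 0.044). The number of falls was 2, 3 and 8 when WT library 0, 1 or 2 was left out and 13, 2 and 1 when Ahr-KO library 0, 1 or 2 was, and 1 without both libraries numbered 2. Prc1, a spindle midzone protein, passed in every alternative (-0.90 ± 0.12, adjusted p = 0.0069), whereas Cdk1 was not called without Ahr-KO 2 (0.057), Mki67 without WT 0 (0.064), WT 1 (0.06), Ahr-KO 1 (0.089) or Ahr-KO 2 (0.1), and Top2a without WT 0 (0.099), WT 1 (0.1), WT 2 (0.077), Ahr-KO 1 (0.11) or Ahr-KO 2 (0.15). The 20 genes of the checkpoint and of homologous recombination gave 0 calls in limma-trend and in limma-voom, with a median of -0.16. Of them 3 were lower and 1 higher at an unadjusted p under 0.05, beside 2245 and 2055 of the 15386 tested genes.

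Histone genes named as the replication-dependent clusters stood on the other side. Of 36 found, 22 were tested, 4 rose and 0 fell, beside 4.5% and 6.26% of all tested genes, and their median was 0.86. With equal library totals, limma-voom or the library number as a block, 2 rose, beside 2.91%, 2.83% and 2.17% of all tested genes. Only 9 of these histone genes reached a value of 10 in at least 3 libraries, with a median of 0.84. Hist2h2be measured 493, 424 and 383 in WT and 1012, 1099 and 974 in Ahr-KO (difference 1.25 ± 0.12, adjusted p = 0.0031), and Hist3h2a rose as well (0.87 ± 0.14, 0.011). The summed value of the 36 was 5759 to 7163 in the WT libraries and 9004 to 11484 in the Ahr-KO libraries. The number of rises was 3, 2 and 3 when WT library 0, 1 or 2 was left out and 3, 2 and 1 when Ahr-KO library 0, 1 or 2 was, and Hist3h2a was not called without Ahr-KO 2 (0.057). These genes are close copies of each other, so reads could have been split among them and single values are uncertain. Most of their mRNA has no poly(A) tail, and whether poly(A) RNA was selected is not given in the sources used here.

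Markers of T, NK and B cells fell in the Ahr-KO libraries along with the 8 genes. T cell markers fell in 10 of 12 tested genes and their summed value was 2066 to 2722 in the WT libraries and 949 to 1242 in the Ahr-KO libraries. Markers of NK and cytotoxic cells fell in 8 of 11 (3066 to 3638 in the WT libraries and 1284 to 1819.8 in the Ahr-KO libraries), and B cell markers in 7 of 10 (1764 to 2345 in the WT libraries and 787 to 1034 in the Ahr-KO libraries). None of these markers was at 0 in all libraries, and none of the 33 rose. With 1 library left out the number of falls ran from 3 to 8 for T cells, 3 to 7 for NK and cytotoxic cells and 3 to 7 for B cells. It was lowest for each without Ahr-KO 2, and equally low without Ahr-KO 1 for T and NK cells and without WT 0 for T cells. Without both libraries numbered 2 the falls were 2 for T cells, 2 for NK and cytotoxic cells and 1 for B cells. Macrophage and monocyte markers fell in 5 of 12, with sums of 17675 to 21036 in the WT libraries and 10559 to 17588 in the Ahr-KO libraries, and Marco was at 0 in all 6 libraries. Their part in the falls of the replication genes was not tested.

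Erythroid markers gave 0 calls of 10 in limma-trend and limma-voom (4 lower at an unadjusted p under 0.05, and 1 fall without WT library 0) and summed to 5651 to 16734 in the WT libraries and 3531 to 7626 in the Ahr-KO libraries, with WT library 0 low. Alveolar markers rose in 3 of 12 (1 to 4 with 1 library left out, lowest without WT 0, Ahr-KO 1 or Ahr-KO 2) and fell in 0, with sums of 604124 to 679138 in the WT libraries and 802519 to 903375 in the Ahr-KO libraries. Endothelial markers rose in 4 and fell in 1 of 12, and with 1 library left out the rises ran from 1 to 5, lowest without Ahr-KO library 1, and the falls from 0 to 1. Fibroblast and pericyte markers fell in 3 and rose in 0 of 10, with 1 to 3 falls when 1 library was left out, lowest without WT 0, Ahr-KO 1 or Ahr-KO 2. Airway markers rose in 2 and fell in 2 of 8, each 1 to 2 with 1 library left out, and smooth muscle markers gave 0 calls of 8 in limma-trend and limma-voom (2 higher at an unadjusted p under 0.05). Neutrophil markers gave 0 calls of 7 in both (0 at an unadjusted p under 0.05), with 5 positive differences, a median of 0.27 and sums of 871 to 1612 in the WT libraries and 703 to 1734 in the Ahr-KO libraries. Germinal centre and plasma cell markers gave 1 call in each direction of 10, 0 to 1 with 1 library left out, and summed to 14899 to 15039 in the WT libraries and 15663 to 17928 in the Ahr-KO libraries. The genotypes differed in cell markers in the same contrast as the replication genes, and the part of any of these lists was not tested.

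**Figure D4:**
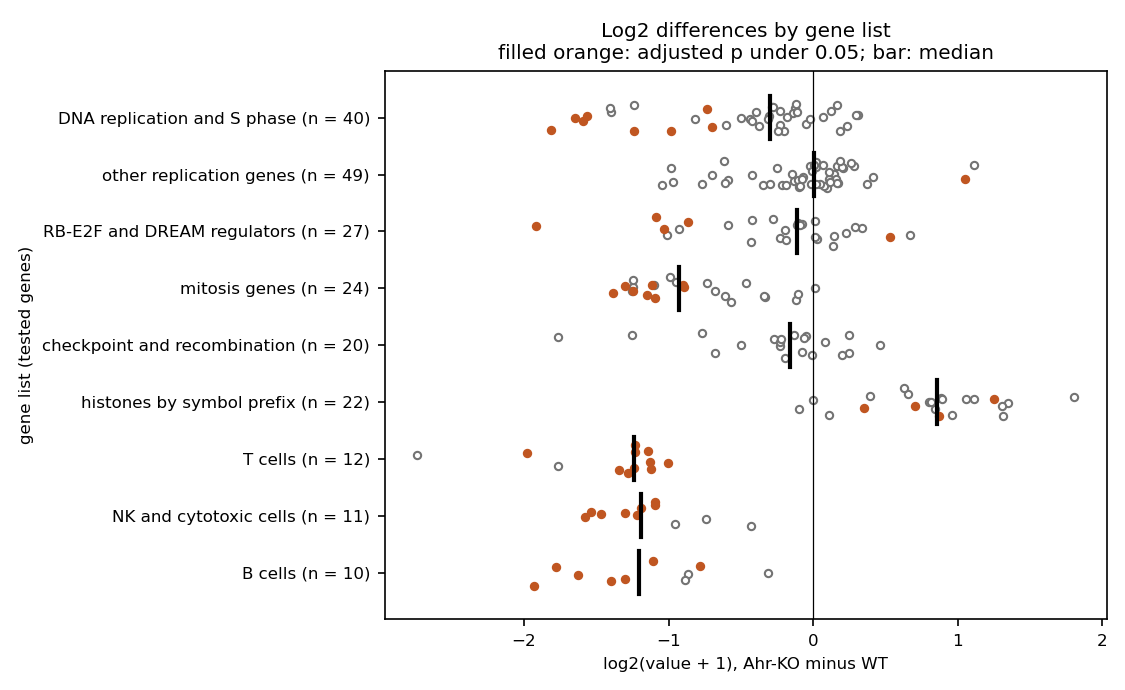
Log2 differences Ahr-KO minus WT for each tested gene of the 40 replication genes and 8 other lists, 1 point per gene, with the median of each list as a bar. The medians are -0.30 for the 40 genes, 0.0044 for the other replication genes, -0.93 for mitosis genes and -1.24 for T cell markers, and histone genes lie to the right at 0.86.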

How the data were processed

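Bulk RNA-seq of total lung was deposited as 1 table with a value per gene symbol for 3 WT and 3 Ahr-KO libraries. Per the labels' protocols, Trizol lysates were cleaned on columns and DNase-treated. The tool FastQC and the build rn6 are named, per the submitters' processing notes. Aligner, counter, gene models and library strand were not given in the sources used here. What the authors deposited is a normalised signal with no negative values. In each library 97.4% to 97.9% of the values above 0 fell, to within 0.05, on whole multiples of a step, which gave the depth as the total divided by the step. The rest were fractions, so no count model was run on the values as deposited, although one had been planned for raw counts.

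Columns number the libraries 0 to 2 and sample titles count from 1, so columns were assigned to groups only, and 0 columns of values were left unused. Nothing in the labels says that each sample was its own animal, so the p-values reflect only how far these samples spread, which may be technical. The lowest chi-square per gene between any libraries was 14.5, so none looked like a repeat of another.

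Values were transformed to log2(value + 1), the 15386 genes reaching a value of 1 in 3 or more libraries were kept, and a limma-trend fit (limma 3.58.1, R 4.3.3) took genotype as its only term. P-values are 2-sided with Benjamini-Hochberg adjustment over all tested genes at 0.05, and fold values are these differences on the linear scale. The code was tested on simulated data. The members, the gene lists, the motifs and the tests were chosen with earlier results of these data known. Values in every library are given for members past the threshold, the 5 members with the lowest p in each direction, the 3 with the largest and the 3 with the smallest difference, and Pcna, Mcm2, Ccne1 and E2f1. Mcm10 and Rrm2 were added after their values were seen. From each other list up to 3 genes with the lowest p could be named, with Mki67, Top2a, Cdkn1a, Ahr and Cyp1a1.

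Alternatives were equal library totals, quantile normalisation, no trend, robust limma, no filter, at least 10 in at least 3 libraries, a pseudocount of 0.1, a threshold of 0.10, a fold of at least 1.5, the library number as a block and each library left out. The fit without both libraries numbered 2, limma-voom on step-divided values and the Mcm ratios were chosen after seeing the data. Overlapping genes, pseudogenes and promoters came from RefSeq on GRCr8, a different build, and were matched by symbol for all 40 members (33 for promoters), of which 13 overlap another gene and 9 have named pseudogenes.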

Additional observations from a re-analysis of the deposited data

How the results depend on the processing

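The number of members past the threshold, 8 lower with limma-trend, was 6 to 12 under the alternatives that kept all libraries, 3 to 8 with 1 library left out and 1 without both libraries numbered 2. The single rise under any of them was Mcm7 without WT library 2. The median log2 difference of the members moved from -0.30 to -0.39 with equal library totals, to -0.23 with quantile normalisation and to -0.37 with limma-voom, and lay between -0.33 and -0.29 with 1 library left out. Over all genes past the threshold, 1655 in the reported fit, the count was 2853 at an adjusted p under 0.10, 952 without the trend, 553 without both libraries numbered 2 and 407 to 1834 with 1 library left out. Equal library totals moved the split from 692 higher and 963 lower to 448 and 1314, and limma-voom to 436 and 1290, and the median log2 difference of all tested genes from 0.0085 to -0.082 and -0.083. The library number as a replicate block left 6 members and 899 genes (334 higher, 565 lower), with adjusted p of 0.1 for Pole and 0.059 for Chaf1b, the members no longer called. No pairing by number was seen, since the correlations of same-numbered libraries were -0.10, 0.069 and -0.074, and not every library correlated best with its own number. With 3 libraries in each group these correlations cannot decide whether samples were paired. Over the 40 members and 16 alternatives, 578 values kept their direction and side of the threshold, 35 lost the call, 10 gained it and 17 changed sign, the latter in genes with an adjusted p of at least 0.58. With quantile normalisation Orc6 was 0.16, Rfc3 0.00998, Lig1 0.18, Fen1 0.029 and Ahr -0.012. With equal totals Rfc4 was -0.023 and Ahr -0.012, and with limma-voom Rfc4 was -0.025 and Ahr -0.012. Without both libraries numbered 2 Orc6 was 0.036, Lig1 0.067, E2f2 -0.014 and Csf3r 0.056. With 1 library left out the values ran from -0.34 to 0.10 for Gins2, -0.32 to 0.097 for Orc6, -0.14 to 0.26 for Rfc4, -0.24 to 0.18 for Lig1, -0.67 to 0.0696 for Csf3r, -0.52 to 0.35 for Cdkn1a and -0.061 to 0.29 for Ahr. The cause of these changes was not tested. Fits without a library have fewer samples. With 3 libraries in each group and under 50 reads behind Cdc6, Chaf1b, Ccne1, Orc1, Mcm10 and Gins1 in every library, counting error limits these genes.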
